A study of Mus musculus with 8 samples.

Results

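The insulin-like growth factor (IGF) ligand genes Igf1 and Igf2 and the binding protein genes Igfbp3, Igfbp4, Igfbp5, Igfbp6 and Igfbp7 were described in cells sorted for PDGFRα from hindlimb muscle of dysferlin knockout and wild type mice. These 7 members of 31053 listed genes were found by their symbols. They were read in barcodes with at least 500 genes, at most 10% of UMIs (unique molecular identifiers, each counted as 1 captured transcript) from mitochondrial genes and at least 1 UMI of Pdgfra. The rule kept 1435 of 1724 knockout barcodes and 1533 of 2073 wild type barcodes. Exactly 1 Pdgfra UMI was found in 11.8% of the kept knockout cells and 17.2% of the kept wild type cells. A further 149 knockout and 264 wild type barcodes passed the other filters and had no Pdgfra UMI.

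Live single cells of this kind, called fibro/adipogenic progenitors or FAPs, were profiled with the 10x Genomics 3′ version 3 droplet kit. The Dysferlin KO animals, given as strain BLA/J in one label and as B6A/J in the protocol text, lack dysferlin, a membrane repair protein of muscle fibres. The wild type animals were C57BL/6, and all animals of both groups were females of 8 months. The labels list 4 samples in each group, but each group was deposited as 1 matrix with nothing that maps barcodes to samples. Each group is therefore 1 library here and no test was possible. The effect of genotype cannot be told apart from that of strain or of the preparation of the library. All intervals given are 95% intervals for counting error only. The labels name no promoter, no Cre and no allele beyond the name Dysferlin KO.

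IGF1 and IGF2 are secreted peptides that act mainly through the type 1 IGF receptor, while the IGF2 receptor takes IGF2 up for degradation. The binding proteins hold most secreted IGF outside the cell, lengthen its life or keep it from the receptor, and release it when proteases cut them. IGF1 is a growth and repair factor for muscle fibres and satellite cells, and stromal cells and macrophages are known sources of it in muscle.

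The selected cells held 19170199 UMIs in the knockout library and 14420247 in the wild type library, with medians of 12717 and 9177 UMIs per cell and 3561 and 2860 genes per cell. Because of this depth gap, cells were compared one by one after thinning each to 3000 UMIs, which left 1366 knockout and 1419 wild type cells and dropped 69 and 114 shallower ones. In each library 9 of the 10 markers for FAPs were found in 50% of cells or more. Markers of other cell types were scarce, with summed levels of 66.6 and 6.17 CPM (UMIs in every 1000000) for 8 macrophage markers and 23.0 and 25.1 CPM for 7 endothelial markers in the knockout and wild type libraries. The 6 tenocyte markers summed to 961 CPM in the knockout and 580 CPM in the wild type cells, nearly all from Thbs4. The defining tenocyte gene Scx stood at 1.36 and 0.624 CPM. Dysf had 14 UMIs in the knockout and 9 in the wild type cells. The labels do not say which part of the gene is changed, so these 3′ tags cannot check the genotype. The libraries shared 13 barcode sequences in all and 2 among the selected cells.

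The promoters of the 3 members whose levels differed most between the libraries, leaving out the barely detected Igf2, are shown first, to let a reader see what lies upstream of them. Each run holds 250 bases before and 50 bases from the RefSeq start of the gene (GRCm38.p6), read 5′ to 3′ on the gene's strand. Capitals mark every match, on either strand, to TATAAA, the core promoter box, GGGCGG, a site of Sp1-type factors, CCAAT, a site of NF-Y, or AGAACA, part of the glucocorticoid response element.
Igfbp6, chr15:102143936-102144235, plus strand: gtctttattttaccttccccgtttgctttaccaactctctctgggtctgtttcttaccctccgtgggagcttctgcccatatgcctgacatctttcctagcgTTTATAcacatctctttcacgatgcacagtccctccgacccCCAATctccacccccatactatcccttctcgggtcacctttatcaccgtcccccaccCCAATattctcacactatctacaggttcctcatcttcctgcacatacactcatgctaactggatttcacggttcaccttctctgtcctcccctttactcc
Igfbp4, chr11:99040994-99041293, plus strand: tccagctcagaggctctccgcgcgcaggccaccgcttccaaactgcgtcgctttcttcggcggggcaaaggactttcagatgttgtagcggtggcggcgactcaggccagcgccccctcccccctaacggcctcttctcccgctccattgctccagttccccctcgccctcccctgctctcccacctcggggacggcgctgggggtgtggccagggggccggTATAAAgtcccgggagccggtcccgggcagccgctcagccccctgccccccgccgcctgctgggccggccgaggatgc
Igfbp7, chr5:77407996-77408295, minus strand: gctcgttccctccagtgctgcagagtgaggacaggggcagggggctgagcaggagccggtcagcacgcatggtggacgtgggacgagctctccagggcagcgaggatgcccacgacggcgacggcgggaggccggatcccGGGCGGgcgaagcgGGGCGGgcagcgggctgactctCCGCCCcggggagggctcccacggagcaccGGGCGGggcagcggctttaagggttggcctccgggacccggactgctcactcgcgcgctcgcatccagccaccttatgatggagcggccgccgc
The Igfbp4 window held 1 TATAAA match, 28 to 23 bases before the start. The Igfbp7 window had no TATAAA match and 4 GGGCGG matches, and was 73.3% G and C. The Igfbp6 window was 49.7% G and C, with 2 CCAAT matches and 1 TATAAA match on the opposite strand, and it ends upstream of the gene start that GENCODE gives, base 102144362 of chromosome 15. Over 32817 RefSeq promoters of the same length, 13.6% held TATAAA, 35.6% GGGCGG, 37.4% CCAAT and 18.97% AGAACA, and the median G and C content was 52.7%. A match describes letters only, and the 3 windows share no pattern of these 4 motifs.

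On mm10, the genes lie on 6 chromosomes: Igf1 at chr10:87858265-87937042, Igf2 at chr7:142650766-142666816, Igfbp3 at chr11:7206086-7213923, Igfbp4 at chr11:99041244-99054392, Igfbp5 at chr1:72857932-72874884, Igfbp6 at chr15:102144362-102149511 and Igfbp7 at chr5:77349240-77408041. All are protein coding. Gm49394 overlaps Igf2 on the same strand, so their reads may not be separable, and it had 0 UMIs in both libraries. Igfbp7 overlaps Polr2b on the opposite strand.

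Igfbp6 was lower in the knockout library, Igfbp4 and Igfbp7 were higher, and Igf1 and Igfbp5 differed little. Igfbp6, which binds IGF2 more tightly than IGF1, stood at 1368 CPM in knockout cells (1352 to 1385) and 2731 CPM in wild type cells (2704 to 2758), a log2 difference of -0.997 (-1.02 to -0.97). It was the 113th most abundant gene in the knockout and the 35th in the wild type library. Each UMI is 1 tag at the 3′ end whatever the length of the transcript, so levels of different genes were compared without dividing by length.

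Igfbp7, a secreted relative of the classical binding proteins with weak affinity for IGFs, was the most abundant member in the knockout. Its level was 2041 CPM in knockout cells and 1400.5 CPM in wild type cells, with ranks 49 and 119 and a log2 difference of 0.54 (0.52 to 0.57). Igfbp4, which mostly keeps IGFs from the receptor until the protease PAPP-A cuts it, stood at 1289 CPM in knockout cells and 861 CPM in wild type cells. Its log2 difference of 0.58 (0.55 to 0.61) lay just under the 1.5-fold mark.

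Igfbp5, a binding protein that also attaches to extracellular matrix, reached 705 CPM in knockout and 662 CPM in wild type cells, a log2 difference of 0.09 (0.05 to 0.13) whose sign turned in 3 of 11 other ways of processing. Igfbp3, the main carrier of IGFs in blood, was the least abundant of the 5 binding proteins, with 111 CPM in knockout and 153 CPM in wild type cells and a log2 difference of -0.45 (-0.54 to -0.37). Within each library, neighbours in the order of levels were separated by more than their counting intervals.

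Igf1 was the only ligand with a sizeable level, 564 CPM in knockout cells (554 to 575) and 517 CPM in wild type cells (505 to 529), a log2 difference of 0.13 (0.08 to 0.17). In cells left after dropping those with 2 or more UMIs of other cell type markers, the Igf1 difference was 0.04. With the tenocyte list not used for this, an alternative chosen after seeing the data, it was 0.11.

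Igf2 was close to absent in these counts, with 54 UMIs in 17 knockout cells and 9 UMIs in 9 wild type cells. Reads that Igf2 shares with the overlapping Gm49394 may be missing from them. A single knockout cell held 33 of the 54. Without the highest cell of each library, a choice made after seeing the data, 21 and 8 UMIs remained in the knockout and wild type libraries, and the log2 difference was 0.98 with an interval from -0.25 to 2.36. No direction was therefore read for Igf2.

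**Figure D1:**
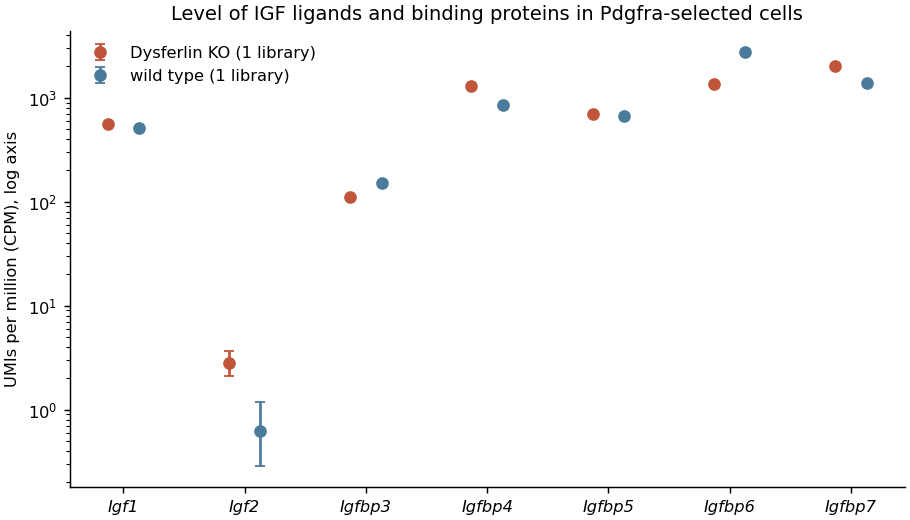
Level of each member in CPM (log axis) in the selected cells of the knockout library (red) and the wild type library (blue), 1 library each, with bars for 95% counting intervals, which are narrower than most points. Igfbp6 was the highest member in the wild type library and Igfbp7 in the knockout library, and Igf2 lay far below all others in both.

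The 5 binding proteins together made up 5515 CPM in knockout cells and 5808 CPM in wild type cells, a log2 difference of -0.07 (-0.09 to -0.06). For every ligand UMI there were 9.73 binding protein UMIs in the knockout and 11.2 in the wild type library. The libraries thus differed more in which binding protein was counted than in their sum.

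Of the 7 members, 6 had a mean level of at least 20 CPM, and Igf2 did not. Among these 6, 0 were at least 1.5-fold higher in the knockout and 1, Igfbp6, was at least 1.5-fold lower, while 5.07% of all 5933 genes at that level were higher and 3.59% were lower by that fold, or 8.66% either way. The median log2 difference was 0.11 over the 6 members and 0.05 over all genes. Igfbp6 was 2.00-fold lower to 3 digits and just missed the stricter 2-fold mark, which 1.01% of all genes passed on the lower side and 1.77% on the higher side. With 6 genes, these counts say little about the family as a group.

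Almost every cell carried several binding proteins. After thinning, 0 of 1366 knockout cells and 0 of 1419 wild type cells lacked all 5, and the median cell had UMIs of 3 of the 5 in both libraries. Igfbp7 was seen in 93.0% of knockout cells (91.6 to 94.3) and 87.2% of wild type cells (85.4 to 88.9). Igfbp6 was seen in 88.5% of knockout cells (86.7 to 90.2) and 97.2% of wild type cells (96.2 to 98.0). Before thinning, these shares were 97.6% and 95.6% for Igfbp7 and 96.9% and 98.2% for Igfbp6 in knockout and wild type cells.

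The other members were less widespread. A UMI of Igfbp4 was found in 86.5% of thinned knockout and 79.4% of thinned wild type cells (94.9% and 89.7% before thinning). For Igf1 the thinned shares were 64.3% and 61.5% (85.4% and 80.1% before thinning), with overlapping intervals. Igfbp5 was detected in 41.0% of knockout and 40.2% of wild type cells (58.8% and 50.4% before thinning), and Igfbp3 in 19.8% and 19.2% (36.1% and 28.8%). Detection of Igf1, Igfbp3 and Igfbp5 was thus alike at equal depth, and the gaps before thinning came with the deeper knockout library. Igf2 was found in 0.146% of knockout and 0.0705% of wild type cells, or 1.18% and 0.587% before thinning.

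Barcodes with blood cell markers and no Pdgfra UMI were used as a guide to free RNA, although such cells can express members themselves, and macrophages are a known source of Igf1. In 10 wild type barcodes with blood cell markers (median 5716 UMIs), Igfbp7 was seen in 10.0%, Igfbp6 in 20%, Igf1 in 30.0% and Igfbp4 in 40%, while Igfbp3, Igfbp5 and Igf2 were seen in 0, which allows up to 30.0%. In 5 such knockout barcodes (median 22317 UMIs) Igfbp7 had 2 UMIs and Igfbp3, Igfbp4, Igfbp5, Igfbp6 and Igf2 had 0. Igf1 had 14 UMIs there, all in 1 barcode. The shares of Igfbp4, Igfbp6, Igfbp7 and Igf1 in selected cells lay above these values. With so few blood barcodes the comparison is imprecise for every member, and for Igf1 the upper limits of the blood shares, 71.6% in the knockout and 65.2% in the wild type library, lay above the thinned shares of the selected cells. The 0 blood barcodes with Igfbp3 or Igfbp5 allow up to 60% in the knockout and 30.0% in the wild type library. The thinned Igfbp3 shares, 19.8% and 19.2%, lay below these limits. The thinned Igfbp5 share lay below its limit in the knockout (41.0%) and above it in the wild type library (40.2%). By this guide, the shares of Igf1, Igf2 and Igfbp3, and that of Igfbp5 in the knockout, cannot be told from background.

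Some members were broad, and others were seen in fewer cells. Igfbp7, Igfbp6 and Igfbp4 were broad, with medians of 5, 3 and 3 UMIs per thinned knockout cell and 3, 7 and 2 UMIs per thinned wild type cell. At least 10 UMIs of Igfbp6 were found in 8.64% of knockout and 29.2% of wild type cells. The same mark for Igfbp7 was reached by 18.6% of knockout and 7.54% of wild type cells. Medians as well as high counts of Igfbp6 and Igfbp7 thus differed between the libraries, in opposite directions.

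Igfbp5 had the highest variance over the mean of the members, and Igfbp3 was sparse. For Igfbp5 the variance over the mean (Fano factor) was 12.5 in knockout and 12.3 in wild type cells, ranks 10 and 13 of 3844 genes, where the median gene had 1.06 and 1.05. The median cell had 0 Igfbp5 UMIs in both libraries, the highest cells had 56 in the knockout and 61 in the wild type library, and the top 10% of cells held 68.9% and 65.3% of its UMIs. Igfbp3 had 73.1% and 80.7% of its UMIs in the top 10% of knockout and wild type cells. Its means were 0.365 and 0.490 UMIs per cell, and part of that share comes from low counts alone. The Fano factor of Igfbp3 was 2.95 and 4.46, and that of Igfbp6 was 3.68 and 5.10. Means in knockout and wild type cells were 2.17 and 2.18 UMIs for Igfbp5 and 4.13 and 7.96 for Igfbp6. The Fano factor tends to rise with the mean, so it cannot show which of these members was more uneven. The top 10% of cells held 41.7% and 40.4% of Igf1 UMIs, and 24.5% and 31.0% of Igfbp7 UMIs.

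**Figure D2:**
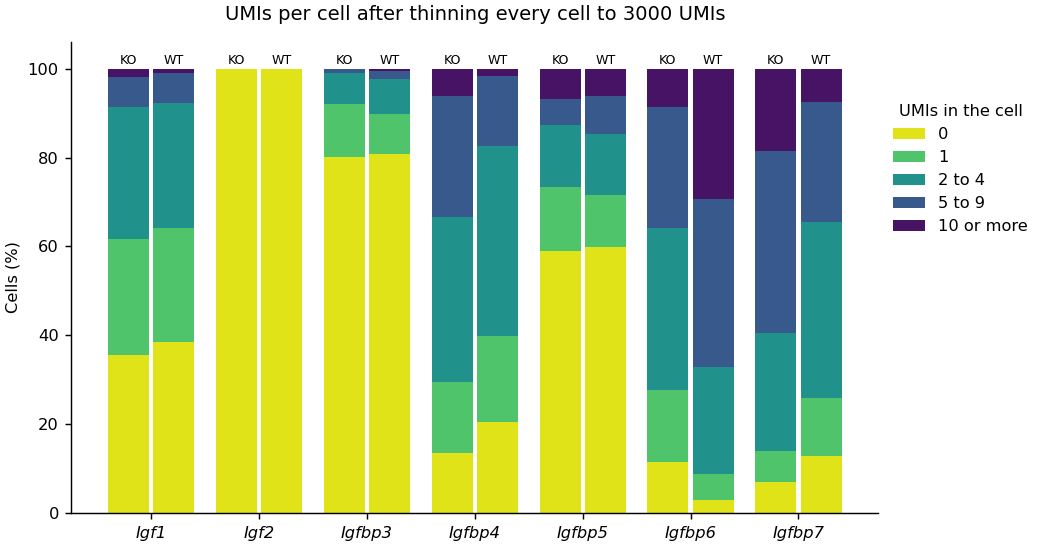
Share of cells (%) by the number of UMIs of each member after thinning to 3000 UMIs, for 1366 knockout cells (left bar of each pair) and 1419 wild type cells (right bar). Igfbp6 and Igfbp7 shift in opposite directions between the bars, while Igfbp5 keeps 59.0% and 59.8% of cells at 0 beside a tail of 10 or more UMIs.

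The leading binding protein of single cells differed between the libraries. Igfbp7 had the most UMIs of the 5 in 46.9% of knockout cells (44.3 to 49.6) and 20.7% of wild type cells (18.6 to 22.9). Igfbp6 led in 20.9% of knockout cells (18.8 to 23.2) and 56.4% of wild type cells (53.8 to 59.05). Counted against each other alone, Igfbp7 exceeded Igfbp6 in 62.4% of knockout and 27.0% of wild type cells, and Igfbp6 exceeded Igfbp7 in 31.0% and 66.8%.

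Igfbp4 led in 14.6% of knockout and 6.55% of wild type cells, Igfbp5 in 8.13% and 6.62%, and Igfbp3 in 0.439% and 1.55%. Ties made up 9.004% and 8.10% of knockout and wild type cells. Igfbp5 thus led in some cells of each library although the median cell held none of it.

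**Figure D3:**
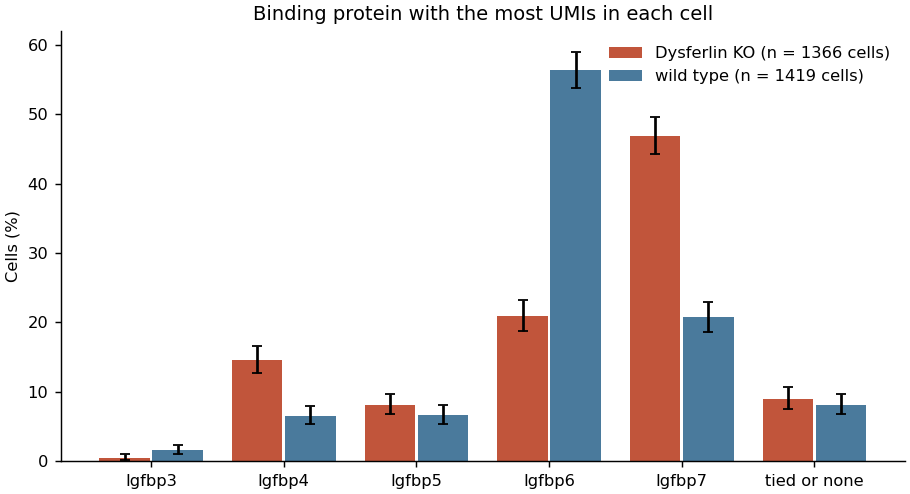
Share of cells (%) in which each binding protein had the most UMIs after thinning, for the knockout library (red) and the wild type library (blue), with bars for exact 95% binomial intervals. Igfbp7 leads in 46.9% of knockout cells and Igfbp6 in 56.4% of wild type cells.

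No pair of members was strongly linked over cells. Among the 21 pairs, 0 had a Spearman rho of at least 0.2 or at most -0.2 in both libraries, and 19 lay within that range in both, over 1366 knockout and 1419 wild type thinned cells. Cells of a library share its preparation, and rho of this size in sparse counts is a description only. For pairs without Igf2, joint detection was between 0.855 and 1.24 times what the single shares give. For members seen in most cells this ratio must lie near 1, so it cannot show avoidance there. The pair least often seen together, Igfbp3 and Igfbp5, still shared 95 knockout and 118 wild type cells. No pair without Igf2 was therefore fully exclusive.

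The most opposed pair was Igf1 and Igfbp6, with rho of -0.19 in knockout and -0.20 in wild type cells. The 341 knockout cells highest for Igf1 averaged 3.06 Igfbp6 UMIs and the 341 lowest averaged 4.94. In the wild type library the 354 highest averaged 6.28 and the 354 lowest 9.37, with ties broken at random in both. Igfbp5 and Igfbp6 leaned the same way, with rho of 0.14 and 0.21 in knockout and wild type cells. Igfbp6 and Igfbp7, the pair that traded the leading place, had a rho of only -0.08 and -0.14.

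Cells with and without Igf1 carried nearly the same load of binding proteins. Knockout cells with an Igf1 UMI averaged 16.4 binding protein UMIs and those without averaged 16.5. In wild type cells both averages were 17.3.

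Among 3621 genes seen in at least 10% of thinned cells of both libraries, Igfbp7 ran most closely with Cst3 (cystatin C, a protease inhibitor; rho 0.46 in knockout and 0.44 in wild type cells), Mgp (matrix Gla protein, a calcification inhibitor; 0.47 and 0.42) and Bgn (biglycan, a small proteoglycan; 0.40 and 0.40). It ran most against Sema3c, a secreted semaphorin, at -0.35 and -0.34. Igfbp6 ran with Crip1, a LIM domain protein (0.37 and 0.38), Tmsb4x, which binds actin monomers (0.37 and 0.31), and S100a6, a calcium-binding protein (0.30 and 0.38). Its most opposed gene was Lpl, lipoprotein lipase, at -0.20 and -0.30. These partners were picked as the highest of 3621 genes, so their rho cannot be set against that of the few fellow members.

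For the other members the closest genes were weak. Igfbp5 ran with Tmem100, Sema3c and Timp2, with rho from 0.17 to 0.29, and against Smoc2 at -0.25 and -0.22. Igfbp3 ran with Lpl, Apod and Gpx3 at 0.16 to 0.23 and against Fbn1, the fibrillin of microfibrils, at -0.18 and -0.25. Igf1 ran with Sfrp1, Bgn and Ccdc80 at 0.17 to 0.21 and against Igfbp6. Igfbp4 ran with Lum, Meg3 and Igf1 at 0.12 to 0.20 and against Ptma at -0.13 and -0.14. Igf2 was seen in too few cells for this ranking.

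The members were next read in cells that carried at least 3 UMIs of a marker pair, or of Gdf10, out of 3000, beside cells with 0 such UMIs. These gates are ranges of a count and not cell types, they overlap, and no member is part of one. Of 11 gates, 8 had at least 25 cells in each library, which gave 48 values for the 6 members other than Igf2. Gate sizes differed between the libraries. Dpp4 and Pi16 gated 23.5% of knockout and 28.7% of wild type cells, Cthrc1 and Postn 25.4% and 4.44%, Cpxm1 and C1qtnf3 20.9% and 2.61%, and Stmn4 and Inmt 3.07% and 16.6%. Many cells lay at the edge, with 207 knockout and 200 wild type cells at 2 or 3 UMIs of Dpp4 and Pi16.

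Igfbp3 and Igfbp5 depended most on the gate. In both libraries, 1 of the 48 values was at least 2-fold above marker-free cells and 2 were at least 2-fold below, against 0.594% and 0.91% of 47464 such values over all genes. The value above was Igfbp3 in cells gated by Fst (follistatin, an activin and myostatin antagonist) and Penk (proenkephalin). There Igfbp3 had 2.62 UMIs in 10000 in gated knockout cells and 0.755 in marker-free ones, a log2 difference of 1.80 (1.63 to 1.97). In the wild type library it had 3.39 in gated and 0.730 in marker-free cells, a log2 difference of 2.22 (2.05 to 2.39).

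Both values below were of Igfbp5. In cells gated by Mme (neprilysin) and Hsd11b1 (which regenerates active glucocorticoid), Igfbp5 had 1.90 UMIs in 10000 against 9.05 in marker-free knockout cells, and 1.76 against 8.40 in wild type cells. The log2 differences were -2.25 and -2.26 in the knockout and wild type libraries. In cells gated by Comp and Thbs4, which encode matrix glycoproteins of the thrombospondin family, they were -1.99 and -1.23.

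Igfbp5 was also above marker-free cells where Dpp4 and Pi16, markers of progenitor-type fibroblasts, were present. It had 16.7 UMIs in 10000 in gated and 3.79 in marker-free knockout cells, a log2 difference of 2.14 (2.08 to 2.20). In the wild type library it had 9.26 and 5.41, a log2 difference of 0.78 (0.71 to 0.84). In the Fst and Penk gate Igfbp5 had 7.51 UMIs in 10000 in gated and 7.02 in marker-free knockout cells, and 10.1 and 5.83 in wild type cells, so the Dpp4 and Pi16 gate held its highest level in the knockout but not in the wild type library. Of 92 knockout cells with at least 10 Igfbp5 UMIs, 62 (67.4%) lay in this gate, and of 88 such wild type cells 39 (44.3%) did. All 92 and 88 of these high cells together, inside and outside the gate, held 57.0% of thinned Igfbp5 UMIs in the knockout and 51.6% in the wild type library.

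The same gate separated the broad binding proteins in both libraries. Igfbp6 was above marker-free cells by a log2 difference of 0.81 in knockout and 0.83 in wild type cells, and Igfbp7 was below them by -0.81 and -1.04. Igfbp3 was lower there as well, at -0.77 and -1.35. Within the gate Igfbp6 led in 32.1% of knockout and 76.2% of wild type cells, and Igfbp5 led in 19.6% and 6.63%.

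In gates of matrix genes Igfbp7 and Igf1 were above marker-free cells in both libraries, but so was Igfbp4, and this was not particular to these gates. In Cpxm1 and C1qtnf3 cells Igfbp7 was above marker-free cells by 0.78 in knockout and 0.96 in wild type cells on the log2 scale, and Igfbp5 was below them by -1.94 and -0.74. Igf1 in that gate was above by 0.45 and 1.05. In cells gated by Cthrc1 and Postn, genes of activated fibroblasts, Igf1 was above by 0.19 in knockout and 1.05 in wild type cells. Igfbp4 was above by 0.64 and 0.32 in the Cpxm1 and C1qtnf3 gate and by 0.27 and 0.51 in the Cthrc1 and Postn gate. Igf1 was also above in the Gdf10 gate (0.83 and 0.33) and the Fst and Penk gate (0.35 and 0.63). In the Dpp4 and Pi16 gate Igf1 was below, at -0.28 and -0.68. Igfbp3 in the Cpxm1 and C1qtnf3 gate was above by 1.09 in knockout cells, and its wild type value of -0.08 rests on 37 cells with an interval from -0.48 to 0.30.

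Gdf10 cells, 26 in the knockout and 48 in the wild type library, had Igfbp3 above marker-free cells by 1.15 and 0.98 and Igfbp7 by 0.35 and 1.17. The gate of the chemokine genes Cxcl9 and Cxcl10 had 80 knockout cells and only 6 wild type cells, so it was read in the knockout alone. Igfbp7 led in 71.2% of those 80 cells, and Igfbp6 was below marker-free cells by -0.83.

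**Figure D4:**
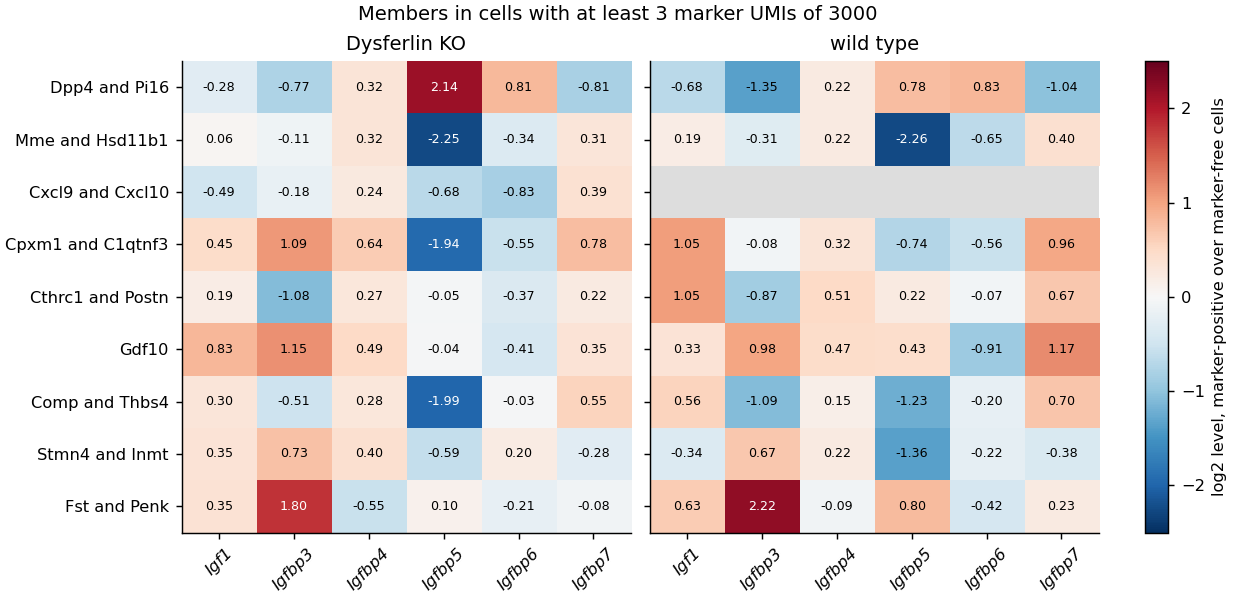
Log2 level of each member in marker-positive over marker-free cells, for the knockout library (left) and the wild type library (right); red is above and blue is below, and grey marks a gate with under 25 cells. Igfbp5 and Igfbp3 hold the deepest colours, such as 2.14 for Igfbp5 in Dpp4 and Pi16 cells of the knockout.

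Set side by side within the 8 shared gates, the lower Igfbp6 and higher Igfbp4 of the knockout were found throughout. Igfbp6 was lower in knockout cells in 8 of 8 gates, by log2 differences from -1.14 to -0.52 with a median of -0.84. It passed 1.5-fold in 7 of them. Igfbp4 was higher in knockout cells in 8 of 8, from 0.19 to 0.78, and passed 1.5-fold in 6. Of all genes, 6.67% were lower and 11.8% were higher in all 8 gates, and over all genes and gates 6.34% of values were at least 1.5-fold lower and 11.3% at least 1.5-fold higher.

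Igfbp7 was higher in knockout cells in 7 of 8 gates and lower in the Gdf10 gate at -0.21. In Cthrc1 and Postn cells its difference was only 0.03, with an interval from -0.04 to 0.09. The share of all genes higher in at least 7 gates was not counted. The median Igfbp7 difference of 0.28 was smaller than the 0.54 over all selected cells. Gate shares differed between the libraries beside it, and their part in the larger value was not tested. Igf1 had no common direction, with 4 gates above and 4 below 0, from -0.68 in Cthrc1 and Postn cells to 0.66 in Stmn4 and Inmt cells.

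Igfbp5 was higher in knockout cells in 3 of 8 gates and lower in 5. In Dpp4 and Pi16 cells it had 16.7 UMIs in 10000 in the knockout and 9.26 in the wild type library, a log2 difference of 0.85 (0.79 to 0.91). In Cpxm1 and C1qtnf3 cells it had 2.73 and 4.13, a difference of -0.60 (-0.82 to -0.37). The difference thus had no common sign over the gates, beside 0.09 over all selected cells, and how far the gates account for that value was not tested. Igfbp3 was higher in 3 and lower in 5 gates, and 0 passed 1.5-fold. The intervals of all 3 higher values held 0. Of the lower values, only those of Cthrc1 and Postn cells (-0.43, -0.76 to -0.09) and Fst and Penk cells (-0.37, -0.55 to -0.19) excluded 0.

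**Figure D5:**
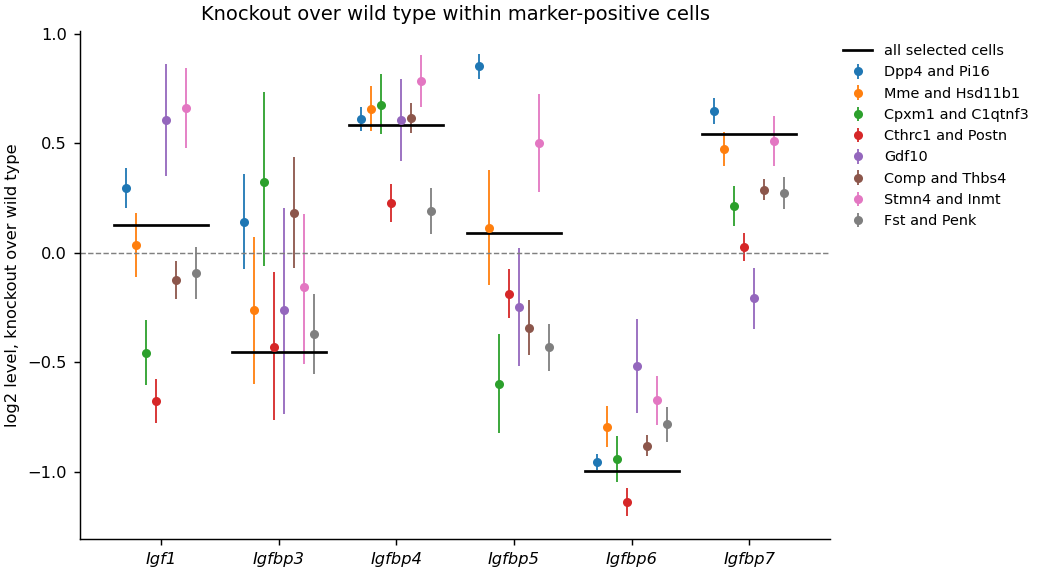
Log2 level of knockout over wild type for each member within the 8 shared gates (coloured points with 95% counting intervals) and over all selected cells (black bars). All 8 Igfbp6 points lie below 0 and all 8 Igfbp4 points above it, while Igfbp5 and Igf1 points lie on both sides.

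The rest of the IGF pathway was read from fixed lists. Of 87 genes found, 55 had a mean level of at least 20 CPM. Among these, 5 were at least 1.5-fold higher in the knockout, 8 were at least 1.5-fold lower and 42 lay between, beside 5.07% higher and 3.59% lower over all 5933 genes. The median log2 difference was 0.01, against 0.05 over all genes. The same shares over all genes are the background of each list below, and lists of so few genes were not tested.

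Of 9 receptor and adaptor genes, 0 were higher and 1 was lower. Igf1r, the signalling receptor, stood at 69.7 CPM in knockout and 82.0 CPM in wild type cells (log2 -0.23), and Igf2r at 152 and 107 CPM (0.50). The adaptor gene Irs2 was the lower one, with 42.8 and 64.8 CPM (-0.60). Grb10, an adaptor that dampens the receptor, differed by 0.07 and Lrp1, an endocytic receptor that binds IGFBP3, by 0.01.

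Other binding proteins were sparse. Igfbp1 had 0 UMIs in both libraries and Igfbp2 had 0 in the knockout and 4 in the wild type library. Igfals, the acid-labile subunit of the circulating complex, had 4 and 5. The related genes Htra1 and Kazald1 differed by 0.11 and -0.04 on the log2 scale. Of 4 CCN genes, which carry an IGFBP-type domain, Nov (110 CPM in knockout and 173 CPM in wild type cells, -0.65) and Wisp2 (29.8 and 44.9 CPM, -0.59) were lower, and Ctgf (0.10) and Cyr61 (0.33) lay within 1.5-fold.

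Among 9 genes of binding protein proteases and their inhibitors, 1 was higher and 1 was lower. Pappa, which encodes the protease that cuts IGFBP4, had 21.02 CPM in knockout and 34.1 CPM in wild type cells, a log2 difference of -0.70 (-0.89 to -0.51). Mmp2, a gelatinase, had 1090 and 608 CPM (0.84). Htra3 (-0.37), C1s1 (0.52), C1ra (0.49) and Serping1 (0.13) lay between. Igfbp4, whose product it cuts, was higher in the same knockout library.

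The growth hormone list had 6 genes, of which 1 was lower. Socs3, a feedback inhibitor of cytokine receptors, had 184 CPM in knockout and 314 CPM in wild type cells (-0.77). Ghr, the growth hormone receptor, differed by 0.12, Jak2 by 0.46, Stat5b by -0.16 and Socs2 by -0.51.

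Of 15 genes acting inside the cell, 0 were higher and 3 were lower. Ddit4, which restrains the kinase complex mTORC1, had 42.6 CPM in knockout and 159 CPM in wild type cells (-1.90). Foxo1 and Foxo3, transcription factors that AKT holds out of the nucleus, had 46.2 and 32.8 CPM in knockout cells and 102 and 61.2 CPM in wild type cells (-1.14 and -0.90). Pik3r1 (-0.58), Gsk3b (0.04) and Sgk1 (-0.12) lay within 1.5-fold.

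Of 10 imprinted genes, 4 were higher and 0 were lower by 1.5-fold, beside 5.07% and 3.59% of all genes. H19, the noncoding RNA that shares an imprinting control region with Igf2, had 84.1 CPM in knockout and 30.6 CPM in wild type cells (1.46). Plagl1, an imprinted zinc finger factor, had 92.3 and 39.0 CPM (1.24), Meg3, a noncoding RNA, 1141 and 675 CPM (0.76), and Zim1, a zinc finger gene, 33.1 and 19.6 CPM (0.76). Cdkn1c (-0.33), Peg3 (-0.03), Ndn (-0.24) and Gnas (0.30) lay between. Igf2 itself stayed at the few UMIs given above.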

How the data were processed

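The authors deposited raw UMI counts for each gene and barcode. The submitters' processing notes name mm10, Seurat and Cell Ranger 3.0.0 without saying what each was used for, and version 3.0.2 of the matrix software is given per the file headers. How empty droplets were removed is not given in these sources. Per the labels' protocols, pulse width gating had kept doublets out of the sort, and no doublet caller was run.

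Counts were summed over selected cells, scaled to CPM and compared as ratios with exact conditional binomial intervals. Sums have exact Poisson and shares exact Clopper-Pearson intervals. A count of 0 was taken to allow 3 counts, 0.156 CPM in the knockout and 0.208 CPM in the wild type library. Thinning drew UMIs without replacement, and gate levels used unthinned counts. Python 3.11.15, numpy 2.4.6, scipy 1.17.1 and pandas 2.3.3 were used, and the calculations were tested on simulated data. The named genes were every member, pathway genes past 1.5-fold with up to 4 others of each list by level, and, for likeness, 3 alike genes and 1 opposed gene per member; 1 pathway gene that this rule names is not reported here. Of 94 listed pathway symbols, 7 matched no symbol in the files. Members and lists were chosen with earlier results of these data known. Alternatives covered the cell filter, the Pdgfra rule, depth, scaling, gates and cells with other markers.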

Additional observations from a re-analysis of the deposited data

How the results depend on the processing

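No paired analysis was possible because nothing maps barcodes to the numbered samples, and for the same reason no replicate could be left out in turn. Over 11 alternatives, the log2 difference of knockout over wild type ranged from -1.05 to -0.92 for Igfbp6, 0.34 to 0.61 for Igfbp4, 0.40 to 0.62 for Igfbp7, -0.52 to -0.26 for Igfbp3 and 0.04 to 0.30 for Igf1. Igfbp5 ranged from -0.03 to 0.52, with 3 values below 0. Igf2 changed sign, to -0.95, without cells that carry other cell type markers, which left 571 knockout and 938 wild type cells. The number of members at least 1.5-fold higher became 1, not 0, with no cell filter and with a stricter filter (Igfbp4), and with at least 3 Pdgfra UMIs, in cells of 5000 to 15000 UMIs and, as an alternative chosen after seeing the data, without cells with other markers when the tenocyte list was not used (Igfbp7). With no CPM minimum, 3716 genes were at least 1.5-fold higher and 2781 lower, and 2621 and 1917 passed 2-fold, while a minimum of 50 CPM gave 150, 125, 54 and 37. The main counts were 301, 213, 105 and 60. Pairs at rho of at least 0.2 in both libraries became 1, Igfbp5 with Igfbp6, at 5000 UMIs, without cells with other markers, and without them when the tenocyte list was not used. Pairs at -0.2 or less became 1, Igf1 with Igfbp6, without cells with other markers. At 5 marker UMIs, 30 gate values were compared, with 2 above and 5 below 2-fold in both libraries. Those above were Igfbp3 in the Fst and Penk gate and Igfbp5 in the Dpp4 and Pi16 gate. Those below were Igfbp3 and Igfbp7 in the Dpp4 and Pi16 gate and Igfbp3 in the Cthrc1 and Postn gate. Igfbp5 in the Mme and Hsd11b1 gate and in the Comp and Thbs4 gate was below as well. Over all genes such shares were counted only at 3 marker UMIs, so these counts have no background beside them. Of the pathway genes, 5 to 7 were at least 1.5-fold higher and 6 to 9 lower over the alternatives, beside 5 and 8 in the main reading. Irs2 and Wisp2 lay just past that mark, both 1.51-fold lower in the knockout, and Pik3r1 lay just under it at 1.49-fold. The cause of these moves was not tested.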

Other observations

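Among barcodes outside the Pdgfra rule, 33 wild type barcodes with at least 5 endothelial marker UMIs (median 4411 UMIs) carried Igfbp7 in 78.8% of barcodes at 2030 CPM, beside 1400.5 CPM in the selected wild type cells. Igfbp4 was found in 42.4% of them, Igfbp3 in 30.3%, Igfbp6 in 24.2%, Igfbp5 in 21.2%, Igf1 in 18.2% and Igf2 in 6.06%. Igfbp6 was at 294 CPM there, beside 2731 CPM in the selected wild type cells. The stromal gene Dcn was seen in 57.6% of these barcodes. In 5 knockout barcodes with endothelial markers, Igfbp4 and Igfbp7 were each seen in 80.0%, Igfbp6 in 20% and the other members in 0.

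Genes of the pathway below 20 CPM on average were not counted above. The few given here are examples outside the naming rule, and others at such levels are left out. Wisp1, a CCN gene, stood at 10.9 CPM in the knockout and 4.02 CPM in the wild type library (208 and 58 UMIs). Adam12, a metalloprotease that cuts binding proteins, stood at 20.5 and 3.19 CPM (393 and 46 UMIs). The RNA-binding protein gene Igf2bp2 stood at 4.75 CPM in the knockout and 8.11 CPM in the wild type library (91 and 117 UMIs). Its relative Igf2bp3 stood at 5.32 and 12.5 CPM (102 and 180 UMIs). Igf2bp1 had 0 in both.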
